A study of Rattus norvegicus with 9 samples.

Results

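The synaptic vesicle and release machinery was taken as a set of 45 genes whose proteins fill out the nerve terminal: synapsins, vesicle membrane proteins, synaptotagmins, SNARE proteins with their regulators, active zone scaffolds, endocytic proteins and neurexins. A member was any gene on this list to which the array annotation gave a transcript cluster, the set of probes that reads 1 gene, with that gene's symbol alone. All 45 were measured, by 51 clusters out of 23446 with a single symbol, and they make up 45 of the 22093 genes measured. For the 5 genes with more than 1 cluster (Erc2, Nrxn3, Syt1, Syt7 and Unc13a) the brightest was used. The 6 dimmer clusters all lay within the range of the negative controls, and the 2 dimmer ones of Erc2 differed between the regions by -0.091 and -0.015 where the brightest differed by 0.096.

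RNA came from bilateral brain tissue of male rats and was hybridised to Clariom D rat arrays. The 9 arrays form 3 groups of 3: hippocampus of rats given transcranial focal stimulation (TFS), hippocampus of sham rats, and parietotemporal cortex of sham rats. TFS is a current passed through the scalp, given here at 300 Hz and 50 mA for 5 min, with tissue taken 4 h later; sham rats had a sham manipulation. The labels describe healthy rats, give no age, and do not tell whether each array stands for its own animal, so the p-values cover the spread among these arrays, which may be technical. The 9 arrays include no cortex of stimulated rats, so TFS was compared in hippocampus alone.

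A nerve terminal releases transmitter when calcium entry triggers the fusion of docked vesicles with the plasma membrane. Fusion is driven by SNARE proteins on the vesicle and on the target membrane, timed by calcium-binding synaptotagmins and by complexins that clamp and promote the SNARE complex, and placed at the active zone by large scaffold proteins. Synapsins hold the reserve of vesicles, and dynamin and its partners take vesicle membrane back afterwards. Many of these proteins come as families of close relatives that different neurons use in different mixtures.

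Values are log2 array signals, so a difference of 1 is a doubling of signal, and levels of different genes are not set against each other because each is read by its own probes. Array medians lay between 4.95 and 5.04, and the medians of positive control probe sets exceeded those of negative ones by at least 3.67 log2 units. Signals under 7.57, the level below which 95% of negative controls lay, are called within the background range. By that limit 39 members lay above it in all 3 groups. Erc1 did so in both hippocampal groups, Syt2 and Doc2a in cortex alone, and Cplx3, Sv2c and Rims2 in no group. Under the limit a difference is one of array signal and does not measure the ratio of transcript. Markers fitted the labelled tissues: of 6 hippocampal principal cell genes tested, 4 were higher in sham hippocampus and 0 lower, and of 13 cortical layer genes 7 were lower and 2 higher.

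Of the 45 members 17 differed between sham hippocampus and sham cortex, 13 lower and 4 higher in hippocampus, at an adjusted p under 0.05 by limma. Among all 15522 genes tested 12.4% passed, 6.46% lower and 5.99% higher, and of the 4466 genes brighter than the background range 21.6% passed, 10.5% lower and 11.2% higher. Of the 40 members above that range 13 passed, 9 lower and 4 higher. In the brightest of 10 equal groups of genes by signal, where 24.2% passed, 7 of 29 members did. A difference above 0 was found for 16 members, against 46.6% of all genes and 53% of those above the background range. The median difference of the members was -0.075, against -0.0044 over all genes tested. All hippocampal arrays lay below all cortical arrays for 18 members and above them for 8. Of all genes 24.1% had arrays that did not overlap, 12.7% below and 11.4% above. Among the 4466 genes above the background range 1622 did not overlap, 796 below and 826 above. Of the 40 members in that range 13 lay below and 8 above. The largest differences belonged to Syt2, Stx1a and Cplx3, all lower in hippocampus, and to Erc1, which was higher.

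Both hippocampus and cortex are bulk tissue here, so fewer cells of a type and less RNA per cell cannot be told apart. Several marker lists lay to the lower side with the lower members. All 12 interneuron markers had a difference below 0 in sham hippocampus and 6 passed the test, with Vip at -1.02, Sst at -0.64 and Pvalb at -0.62 (adjusted p = 0.0360 for Pvalb by limma). The mean of that list was 7.91 to 8.02 on the sham hippocampal arrays, against 8.31 to 8.42 on the cortical ones. Endothelial and pericyte markers were below 0 for all 9 tested, with 2 past the test, Cldn5 at -0.19 and Cdh5 at -0.59, and a median of -0.19. The 9 markers of olfactory, striatal and thalamic tissue were also all below 0, with 1 past the test, Ppp1r1b at -0.29, and a median of -0.23. Choroid plexus markers were above 0 for all 9 tested, with 1 past the test, Ttr at 3.30, and a median of 1.03. Oligodendrocyte markers were above 0 for all 9 tested, with 1 past the test and a median of 0.44, while of the 11 general neuron markers 2 were higher and 1 lower, with a median of -0.0072. The part of any of these in the differences of release genes was not tested.

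**Figure D1:**
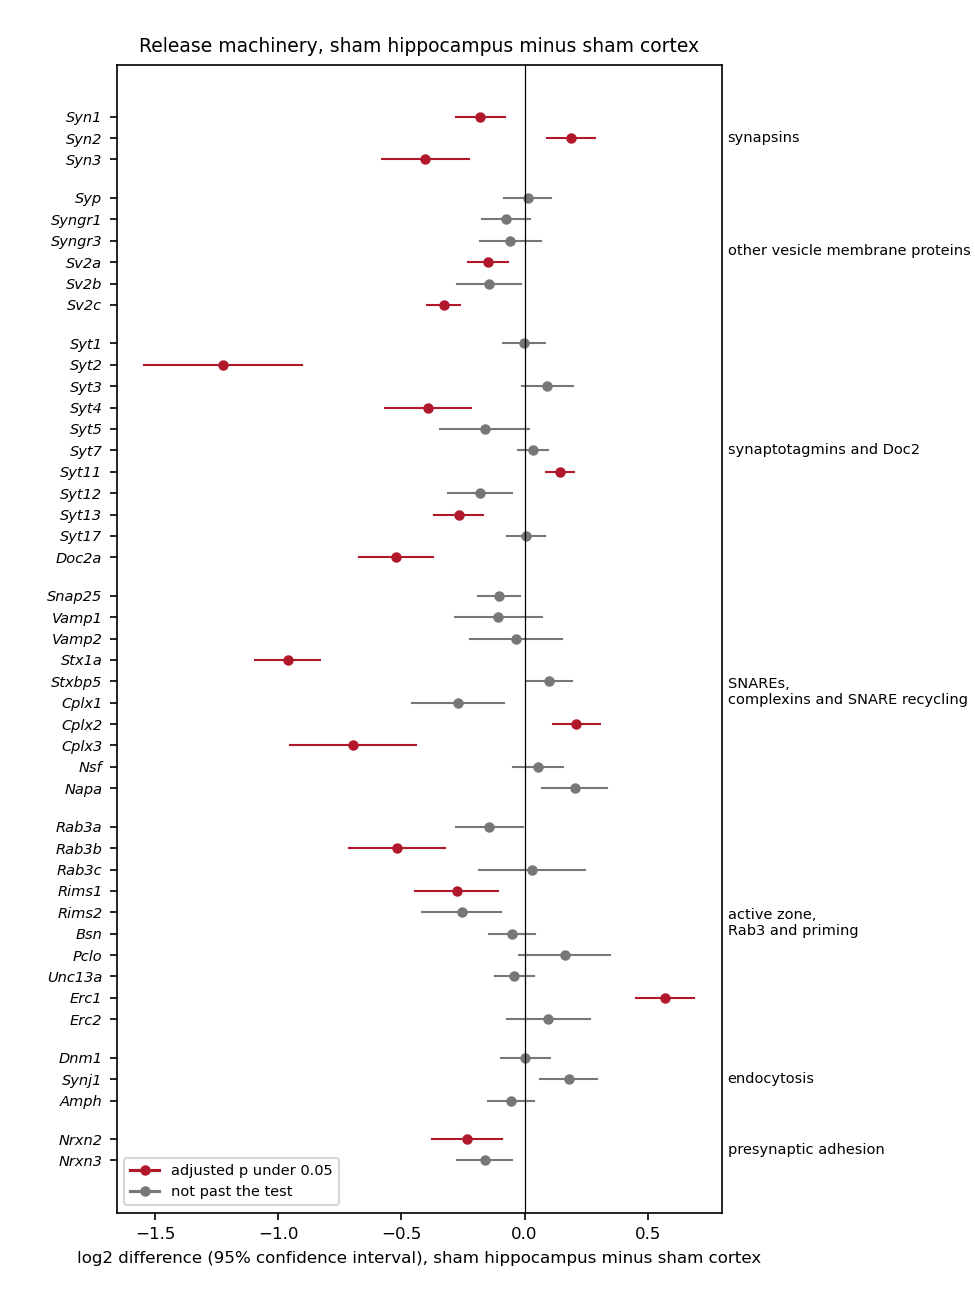
Log2 difference of array signal between sham hippocampus and sham cortex for each of the 45 release genes, grouped by role, with the 95% confidence interval of the limma fit (n = 3 arrays a group). Red marks the 17 genes past the adjusted threshold: Syt2 at -1.22, Stx1a at -0.96 and Cplx3 at -0.70 lie farthest to the left and Erc1 at 0.57 farthest to the right.

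The starts of the genes with the largest differences are shown so that their promoters can be read beside the values. Each line gives 250 bases before and 50 after the annotated start, 5′ to 3′, from RefSeq on build GRCr8, with capitals marking the motif matches described next:
Syt2, chr13:48736872-48737171, plus strand: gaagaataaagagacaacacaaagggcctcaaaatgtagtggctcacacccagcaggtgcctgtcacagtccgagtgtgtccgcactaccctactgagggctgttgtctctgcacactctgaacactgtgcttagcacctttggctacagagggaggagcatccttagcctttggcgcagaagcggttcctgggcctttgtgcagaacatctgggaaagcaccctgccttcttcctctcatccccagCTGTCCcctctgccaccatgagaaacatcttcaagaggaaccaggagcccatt
Stx1a, chr12:27306422-27306721, minus strand: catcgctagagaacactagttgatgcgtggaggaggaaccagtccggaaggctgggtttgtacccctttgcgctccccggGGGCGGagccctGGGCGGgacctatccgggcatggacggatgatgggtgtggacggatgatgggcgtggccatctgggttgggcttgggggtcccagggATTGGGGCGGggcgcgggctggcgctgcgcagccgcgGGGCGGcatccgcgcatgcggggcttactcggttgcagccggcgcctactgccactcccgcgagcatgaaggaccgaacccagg
Cplx3, chr8:66906151-66906450, minus strand: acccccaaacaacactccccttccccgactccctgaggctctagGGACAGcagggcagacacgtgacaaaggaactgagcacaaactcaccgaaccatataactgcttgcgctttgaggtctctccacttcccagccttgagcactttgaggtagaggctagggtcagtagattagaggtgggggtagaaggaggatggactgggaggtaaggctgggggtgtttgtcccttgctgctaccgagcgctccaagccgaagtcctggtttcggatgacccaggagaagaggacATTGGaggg
Erc1, chr4:154727938-154728237, minus strand: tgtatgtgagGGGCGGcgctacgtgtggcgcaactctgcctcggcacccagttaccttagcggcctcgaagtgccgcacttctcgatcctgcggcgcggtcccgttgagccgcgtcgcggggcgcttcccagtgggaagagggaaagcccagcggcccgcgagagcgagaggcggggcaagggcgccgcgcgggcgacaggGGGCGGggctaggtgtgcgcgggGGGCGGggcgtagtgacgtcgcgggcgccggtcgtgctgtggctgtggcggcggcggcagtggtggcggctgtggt

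The motifs searched on both strands were the cAMP response element TGACGTCA, the GC box GGGCGG, the EGR site GCGGGGGCG, the parts CAGCACC and GGACAG of the repressor element RE1, the TATA box TATAAA and the CCAAT box CCAAT. Matches may overlap, and a match describes letters and not a bound site. Promoter here means the stretch around the annotated start, which may not be the start used in these tissues. The Syt2, Stx1a and Cplx3 stretches each reach an ATG soon after that start, so each may hold the edge of a coding exon. Stx1a and Erc1 held several GC boxes, and Syt2 and Cplx3 held none. CpG pairs numbered 28 in Stx1a and 43 in Erc1, against 4 in Syt2 and 8 in Cplx3. Promoters were matched for 32 of the 45 members. A GC box stood in 24 of these, against 34.9% of all 27457 promoters in the table, and an EGR site in 25.0% against 2.78%. The CRE was found in 9.38% of the members' promoters against 1.91%, the RE1 part CAGCACC in 21.9% against 6.91% and the part GGACAG in 21.9% against 21.8%. CCAAT was found in 31.3% against 37.7%, and TATAAA in 0 of 32 against 14.3%. The members' median GC content was 65.8%, against 52.3% for all promoters, and its part in the counts of GC-rich motifs was not tested.

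The synapsins, which tether vesicles to each other and to actin, split by family member. Syn1 measured 10.62, 10.73 and 10.60 in sham hippocampus, against 10.85, 10.77 and 10.86 in sham cortex, and was lower by a small amount (difference -0.18, SE 0.042, adjusted p = 0.0313 by limma). Syn2 read 10.09, 10.10 and 10.09 in sham hippocampus and 9.83, 9.92 and 9.97 in sham cortex, and was higher (0.19, SE 0.041, adjusted p = 0.0238). Neither pair of groups overlapped, so these relatives differed between the regions in opposite directions. Both calls missed the threshold under some other settings, given below, though neither difference changed direction. Syn3, the member with the largest difference of the family, had 7.70, 7.90 and 7.64 in sham hippocampus and 8.19, 8.21 and 8.05 in sham cortex (-0.40, SE 0.076, adjusted p = 0.0130). Its hippocampal arrays all lay below the cortical ones.

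Among the other vesicle membrane proteins, the 3 relatives of SV2, a transporter-like glycoprotein of vesicles, all had a difference below 0. Sv2c gave 6.59, 6.51 and 6.58 in sham hippocampus, against 6.90, 6.88 and 6.87 in sham cortex (-0.33, SE 0.029, adjusted p = 4.42e-04 by limma), all within the background range. Sv2a, whose protein binds the antiepileptic drug levetiracetam, gave 9.42, 9.47 and 9.38 in sham hippocampus and 9.63, 9.54 and 9.56 in sham cortex (-0.15, SE 0.035, adjusted p = 0.0297). For Sv2b the values were 9.90, 10.04 and 9.97 in sham hippocampus and 10.06, 10.04 and 10.24 in sham cortex (-0.14, SE 0.056, adjusted p = 0.157), which did not pass. Sv2a and Sv2c thus fell without overlap of the groups, while the Sv2b arrays overlapped. The abundant vesicle protein synaptophysin, encoded by Syp, differed by 0.012 (adjusted p = 0.897, 95% interval within 1.2-fold), and the synaptogyrins Syngr1 and Syngr3 by -0.075 and -0.058 (adjusted p = 0.317 and 0.538).

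The synaptotagmins are the calcium sensors of release and their relatives, and 1 of the 10 genes carried the largest difference of all members. Syt2, the fast sensor best known from brainstem and fast-spiking inhibitory terminals, measured 6.48, 6.45 and 6.34 in sham hippocampus, against 7.95, 7.36 and 7.63 in sham cortex. It was 2.34-fold lower (-1.22, SE 0.14, adjusted p = 0.00134 by limma), with the hippocampal arrays in the background range and the cortical ones around its limit. The stretch around its annotated start, printed above, had no GC box, and whether transcription begins there in these tissues was not tested. The main fast sensor of forebrain neurons, Syt1, gave 11.32, 11.39 and 11.36 in sham hippocampus and 11.37, 11.28 and 11.43 in sham cortex (-0.0019, SE 0.037, adjusted p = 0.992). The groups overlapped, and the interval of the difference excluded a 1.2-fold change.

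Among the other synaptotagmins, Syt4, an activity-regulated member that does not bind calcium in its first C2 domain, had 9.38, 9.41 and 9.51 in sham hippocampus and 9.89, 9.64 and 9.93 in sham cortex (-0.39, SE 0.074, adjusted p = 0.0133 by limma). Syt13, an atypical member, read 8.27, 8.19 and 8.22 in sham hippocampus and 8.59, 8.43 and 8.46 in sham cortex (-0.27, SE 0.043, adjusted p = 0.00623). Both were lower in hippocampus with no overlap. Syt11, a synaptotagmin that does not sense calcium, was the family member that was higher: 10.59, 10.60 and 10.63 in sham hippocampus, against 10.43, 10.47 and 10.50 in sham cortex (0.14, SE 0.024, adjusted p = 0.00718). The asynchronous release sensor Syt7 measured 8.54, 8.47 and 8.50 in sham hippocampus and 8.50, 8.43 and 8.48 in sham cortex (0.034, adjusted p = 0.454), with overlapping arrays. Syt3, Syt5, Syt12 and Syt17 differed by -0.18 to 0.093 and did not pass, Syt12 at the lower end with an adjusted p of 0.0854. Doc2a, a soluble calcium-binding relative that acts in spontaneous and asynchronous release, had 7.30, 7.25 and 7.20 in sham hippocampus and 7.81, 7.65 and 7.86 in sham cortex. It was 1.44-fold lower (-0.52, SE 0.064, adjusted p = 0.00193), with its hippocampal signal in the background range.

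Of the SNARE proteins, only the plasma membrane syntaxin Stx1a passed the test among the 4 core SNARE genes measured here as members (Stx1a, Snap25, Vamp1 and Vamp2). Stx1a gave 8.12, 8.14 and 8.11 in sham hippocampus, against 9.12, 8.99 and 9.15 in sham cortex. It was 1.95-fold lower (-0.96, SE 0.056, adjusted p = 1.04e-04 by limma), with the smallest p of any member. Its partner on the plasma membrane, Snap25, read 11.69, 11.72 and 11.61 in sham hippocampus and 11.84, 11.75 and 11.75 in sham cortex (-0.10, SE 0.036, adjusted p = 0.122). Those arrays did not overlap, yet the difference did not pass. The vesicle SNARE Vamp2 had 11.19, 11.09 and 10.90 in sham hippocampus and 11.13, 11.18 and 10.97 in sham cortex (-0.036, adjusted p = 0.822). Its relative Vamp1 had 9.18, 9.11 and 9.12 in sham hippocampus and 9.41, 9.07 and 9.25 in sham cortex (-0.11, adjusted p = 0.426). Both VAMP genes overlapped between regions. Stxbp5, whose protein tomosyn holds syntaxin in an inactive complex, differed by 0.10 (adjusted p = 0.166).

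The complexins, which bind the assembled SNARE complex, went in both directions. Cplx3, a complexin found at ribbon synapses of the retina among other places, measured 5.69, 5.80 and 6.00 in sham hippocampus, against 6.47, 6.74 and 6.37 in sham cortex. It was 1.62-fold lower (-0.70, SE 0.11, adjusted p = 0.00579 by limma), with all values in the background range. Cplx2, a broadly expressed complexin of forebrain neurons, was higher, at 10.73, 10.78 and 10.86 in sham hippocampus and 10.64, 10.59 and 10.53 in sham cortex (0.21, SE 0.041, adjusted p = 0.0144). For both genes the regions did not overlap. Cplx1 had 10.24, 10.23 and 10.04 in sham hippocampus and 10.60, 10.33 and 10.38 in sham cortex (-0.27, SE 0.080, adjusted p = 0.0718), without overlap but short of the threshold. The recycling proteins that take used SNARE complexes apart did not pass: Nsf differed by 0.054 (adjusted p = 0.481) and its adaptor Napa by 0.20 (adjusted p = 0.0603). Napa measured 9.25, 9.22 and 9.33 in sham hippocampus, against 9.09, 8.94 and 9.16 in sham cortex, with all hippocampal arrays on the higher side.

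Over the 9 arrays, the 5 tested genes whose profile was closest to Cplx3 were Cbln1 (Pearson r = 0.984), Stk32c (0.979), Camk4 (0.979), Mertk (0.976) and Plxnd1 (0.972). For Vamp1 they were Car7 (0.939), Clec16a (0.938), LOC100912143 (0.936), Gp9 (0.923) and Or10c1 (0.922). These are the highest of 15522 values and are given as a description over arrays of 2 regions.

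At the active zone, Erc1 and Rab3b differed most. Erc1, a scaffold of the ELKS family found in and outside nerve terminals, had 8.02, 8.02 and 8.17 in sham hippocampus, against 7.46, 7.52 and 7.53 in sham cortex. It was 1.48-fold higher (0.57, SE 0.051, adjusted p = 4.61e-04 by limma), with the cortical signal just inside the background range. Its neuronal relative Erc2 read 8.53, 8.69 and 8.66 in sham hippocampus and 8.54, 8.67 and 8.38 in sham cortex (0.096, adjusted p = 0.450), with overlap. Rab3b, one of the vesicle GTPases that RIM proteins recognise, gave 8.09, 8.18 and 7.95 in sham hippocampus and 8.52, 8.58 and 8.68 in sham cortex. It was 1.43-fold lower without overlap (-0.52, SE 0.084, adjusted p = 0.00667). The main Rab3 of brain, Rab3a, had 10.44, 10.35 and 10.20 in sham hippocampus and 10.53, 10.43 and 10.46 in sham cortex (-0.14, adjusted p = 0.173), and Rab3c, at 8.63, 8.76 and 8.65 in sham hippocampus and 8.48, 8.82 and 8.65 in sham cortex, differed by 0.030 (adjusted p = 0.880). Rab3a and Rab3c overlapped between the regions.

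The scaffolds and priming factors differed less. Rims1, which links Rab3 on the vesicle to calcium channels, measured 9.11, 9.31 and 9.34 in sham hippocampus and 9.64, 9.45 and 9.50 in sham cortex (-0.28, SE 0.072, adjusted p = 0.0461 by limma). Rims2 was at -0.26 and just missed the threshold (adjusted p = 0.0537), in the background range. Both RIM genes thus had all hippocampal arrays below the cortical ones. The giant scaffold gene Bsn read 9.23, 9.23 and 9.11 in sham hippocampus and 9.29, 9.22 and 9.21 in sham cortex (-0.050, adjusted p = 0.477), with overlap. Its relative Pclo read 9.18, 9.18 and 9.23 in sham hippocampus and 9.13, 9.13 and 8.84 in sham cortex (0.16, adjusted p = 0.249), and the priming factor gene Unc13a was at -0.042 (adjusted p = 0.495). None of these 3 genes passed. In endocytosis none passed: Dnm1, the dynamin that cuts vesicles free, differed by 0.0026 (adjusted p = 0.989), Amph by -0.055 (adjusted p = 0.440) and the lipid phosphatase gene Synj1 by 0.18 (adjusted p = 0.0568). The Synj1 arrays were 9.95, 10.03 and 9.95 in sham hippocampus, against 9.83, 9.81 and 9.76 in sham cortex, without overlap.

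The neurexins, presynaptic adhesion proteins that organise the terminal, were both below 0: Nrxn2 had 8.32, 8.18 and 8.19 in sham hippocampus and 8.54, 8.48 and 8.38 in sham cortex (-0.23, SE 0.061, adjusted p = 0.0482), and Nrxn3 differed by -0.16 (adjusted p = 0.0727).

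**Figure D2:**
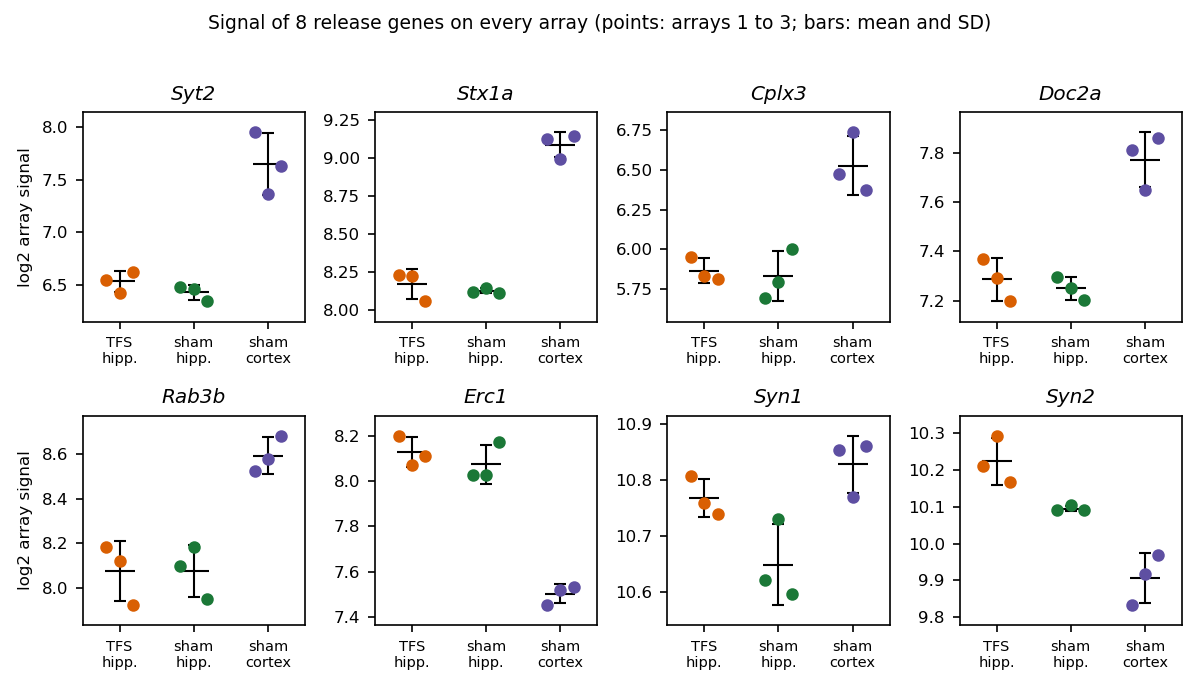
Log2 array signal of 8 release genes on each of the 3 arrays of TFS hippocampus, sham hippocampus and sham cortex (points), with the group mean and SD (bars), each gene on its own scale. Syt2, Stx1a, Cplx3, Doc2a and Rab3b lie lower on all hippocampal arrays than on any cortical one, Erc1 and Syn2 lie higher, and Syn1 lies lower in sham hippocampus.

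The 17 calls were not equally firm. With the 6 arrays alone and the array number as a block the test called 9 members, losing Syn1 (adjusted p = 0.186), Syn2 (0.0796), Sv2a (0.124), Syt4 (0.0757), Cplx2 (0.145), Cplx3 (0.0867), Rab3b (0.0698) and Rims1 (0.231) by limma. With that block over all 9 arrays it called 17, of which 14 were among the original calls: Syn1, Sv2a and Rims1 missed the threshold (adjusted p = 0.0714, 0.0526 and 0.0897), while Cplx1, Napa and Rims2 passed (adjusted p = 0.0401, 0.0363 and 0.0443). Without cortical array 1 it called 10 members and 1458 genes, and without array 1 of both sham groups 8 members and 1328 genes. Over all genes the block gave 982 calls with 6 arrays and 1925 with 9, against 1931 in the main fit. Syt2, Stx1a, Doc2a, Erc1, Sv2c, Syt11 and Syt13 passed in all 19 alternatives run. Rims1 missed the threshold in 14 of the 19, Sv2a in 12, Syn1 in 11, Nrxn2 in 10, Syn2 in 6 and Syt4 in 5. Syn3 missed it in 3, and Cplx2 and Rab3b in 2 each. Cplx3 missed it in 2 of the 18 in which it was tested.

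To set relatives against each other on the same array, the log2 ratio of their signals was taken for 6 pairs picked after their values were seen. The ratio changes with region only where the relatives change unequally, and its level has no meaning of its own. Cplx2 over Cplx1 was 0.50, 0.55 and 0.83 in sham hippocampus, against 0.037, 0.25 and 0.14 in sham cortex, a shift of 0.48. The shift was 1.22 for Syt1 over Syt2, 0.47 for Erc1 over Erc2, 0.37 for Syn2 over Syn1 and 0.37 for Rab3a over Rab3b. In these 5 pairs no sham hippocampal array overlapped a cortical one. For Sv2b over Sv2c the shift was 0.18, with overlap. Between TFS and sham hippocampus the 6 shifts ran from -0.082 to 0.12. The shifts restate the differences that chose the pairs, so they are a description with no test.

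**Figure D3:**
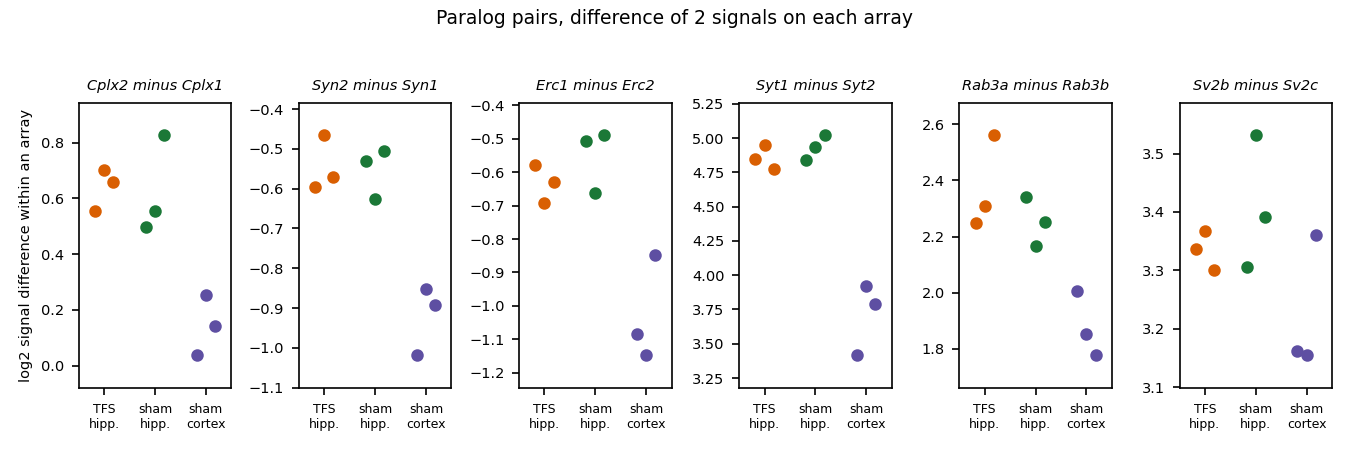
Log2 ratio of array signal for 6 pairs of related release genes on each array of TFS hippocampus, sham hippocampus and sham cortex (points, n = 3 arrays a group), each pair on its own scale. In 5 pairs the sham hippocampal points lie clear of the cortical points, with the largest shift, 1.22, for Syt1 over Syt2.

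Beyond the members, 92 of 97 other genes of the same machinery were measured and 88 tested. Of these 25 passed between the regions by limma, 14 higher and 11 lower in sham hippocampus, with a median difference of -3.4e-04. Among all genes tested 12.4% passed, 5.99% higher and 6.46% lower, and 21.6% of those above the background range did. Other active zone and priming genes gave 5 higher and 5 lower of 22. Rims3, a small RIM, was at -1.09 and Rims4 at -0.53, the calcium-dependent priming gene Cadps2 at -0.41 and the scaffold Lin7c at 0.37. Rims3, Rims4 and Cadps2 lay within the background range in sham hippocampus. Among 11 other synaptotagmins and C2-domain genes 2 were higher and 3 lower. Sytl5 at 0.87, Doc2b at 0.62, Rph3a at -0.60 and Syt10 at -0.52 had the largest differences. Sytl5 and Syt10 lay within the background range in both regions, so theirs are differences of array signal only. The relatives Doc2a and Doc2b thus differed between the regions in opposite directions, each in the background range in its lower region. Of 18 other SNAREs and their regulators 2 were higher, Stx6 at 0.27 and Napg at 0.15, and of 13 other vesicle membrane genes 2 were, Svop at 0.21 and Scamp1 at 0.17. Other endocytic genes gave 3 higher and 3 lower of 24, led by the clathrin adaptor gene Eps15 at 0.42 and Pacsin1 at -0.32.

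In hippocampus 4 h after TFS no release gene passed the test. The limma test called 0 of 45 members and 0 of all 15522 genes (0%) against sham hippocampus, and 7 members had an unadjusted p under 0.05, all higher, where 5.19% of all genes reached that level, 4.37% higher and 0.812% lower. Among the 4466 genes above the background range 10.2% reached it, 457 genes of which 447 were higher, and 6 of the 40 members above that range did. Differences ran from -0.049 for Rab3c to 0.16 for Syt4. The 95% interval excluded a 1.5-fold difference for 45 of 45 members, against 99.2% of all genes, and a 1.2-fold difference for 40 of 45, against 87.5%, so the members were near the general share. Both comparisons use the sham hippocampal arrays, so a value that is low there counts toward a lower region difference and a higher TFS difference alike.

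Sv2c had the smallest p. It measured 6.73, 6.67 and 6.73 in TFS hippocampus, against 6.59, 6.51 and 6.58 in sham hippocampus (0.15, SE 0.029, adjusted p = 0.567 by limma), with all TFS arrays above all sham arrays and all in the background range. Over the alternatives its adjusted p ran from 0.403 to 1. Syn2 gave 10.21, 10.29 and 10.17 in TFS hippocampus and 10.09, 10.10 and 10.09 in sham hippocampus (0.13, SE 0.041, adjusted p = 0.899). Syn1 gave 10.81, 10.76 and 10.74 in TFS hippocampus and 10.62, 10.73 and 10.60 in sham hippocampus (0.12, SE 0.042, adjusted p = 0.921). In both synapsins the groups did not overlap. Dnm1 read 11.06, 11.07 and 11.06 in TFS hippocampus and 10.91, 10.99 and 10.93 in sham hippocampus (0.12, SE 0.043, adjusted p = 0.921). Nsf read 11.00, 11.02 and 11.03 in TFS hippocampus and 10.84, 10.93 and 10.94 in sham hippocampus (0.12, SE 0.043, adjusted p = 0.921). These genes of vesicle retrieval and SNARE recycling also had TFS arrays above all sham arrays. Syngr3 had 9.16, 9.20 and 9.05 in TFS hippocampus and 9.10, 8.97 and 8.92 in sham hippocampus (0.14, SE 0.052, adjusted p = 0.921), with overlap, and Syt11 differed by 0.058 (adjusted p = 0.923).

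Syt4 had the largest difference after TFS, at 9.59, 9.58 and 9.59 in TFS hippocampus, against 9.38, 9.41 and 9.51 in sham hippocampus (0.16, SE 0.074, adjusted p = 0.923 by limma). Erc2 read 8.78, 8.76 and 8.74 in TFS hippocampus and 8.53, 8.69 and 8.66 in sham hippocampus (0.13, adjusted p = 0.923), and Snap25 read 11.77, 11.74 and 11.74 in TFS hippocampus and 11.69, 11.72 and 11.61 in sham hippocampus (0.075, adjusted p = 0.923). The TFS arrays of these 3 genes lay above all sham arrays, though none reached an unadjusted p under 0.05. Syp, the vesicle marker protein gene, had 11.30, 11.28 and 11.22 in TFS hippocampus and 11.10, 11.24 and 11.18 in sham hippocampus (0.094, adjusted p = 0.923), with overlap.

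None of the members that differed most between the regions passed after TFS. Stx1a was 8.23, 8.22 and 8.06 in TFS hippocampus, against 8.12, 8.14 and 8.11 in sham hippocampus (0.043, adjusted p = 0.946 by limma). Syt2 had 6.55, 6.42 and 6.62 in TFS hippocampus and 6.48, 6.45 and 6.34 in sham hippocampus (0.10, adjusted p = 0.946), and Erc1 had 8.20, 8.07 and 8.11 in TFS hippocampus and 8.02, 8.02 and 8.17 in sham hippocampus (0.053, adjusted p = 0.925). Cplx3 had 5.95, 5.83 and 5.81 in TFS hippocampus and 5.69, 5.80 and 6.00 in sham hippocampus (0.036, adjusted p = 0.988). The groups overlapped for all 4 genes. The 95% interval ran from -0.21 to 0.42 for Syt2 and from -0.22 to 0.29 for Cplx3, both in the background range, so a 1.2-fold change was not excluded for either, while it was for Stx1a and Erc1. Vamp2 showed 11.13 on each of the 3 TFS arrays. RMA, which summarises a gene's probes by median polish, can leave arrays with exactly equal values. At least 2 arrays shared a value for 25 members (55.6%), against 73.7% of all tested genes. Where that happens the interval can be too narrow.

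Although no gene passed, 39 of 45 members lay above 0 after TFS, with a median difference of 0.057 against 0.011 over all genes. This has to be read beside signal: 61.3% of all tested genes lay above 0, and 81.8% of the 4466 genes above the background range did. In the brightest of the 10 groups by signal, which holds 29 members, 85.9% of all genes lay above 0 with a median of 0.054, and 27 of the 29 members did with a median of 0.069. The TFS arrays lay above all sham arrays for 10 members and below them for 0, where 9.77% of all genes had arrays that did not overlap. The share above was 8.57% over all genes, 19.3% above the background range and 28.0% in the brightest group, where 8 of 29 members did. Set against the sham hippocampal mean, the median member was at 0.098, 0.046 and 0.041 on TFS arrays 1, 2 and 3. The members' median was 0.036 without TFS array 1, 0.088 with each array centred on its median and 0.013 once tested genes were quantile normalized. Of the 11 general neuron markers 0 passed the limma test, with 1 at an unadjusted p under 0.05. Their difference was above 0 for 10, a share near that of bright genes in general, with a median of 0.073. The TFS arrays lay above all sham arrays for 6 of these 11 markers and below them for 0, against 28.0% above in the brightest group. The part of these markers in the members' values was not tested.

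**Figure D4:**
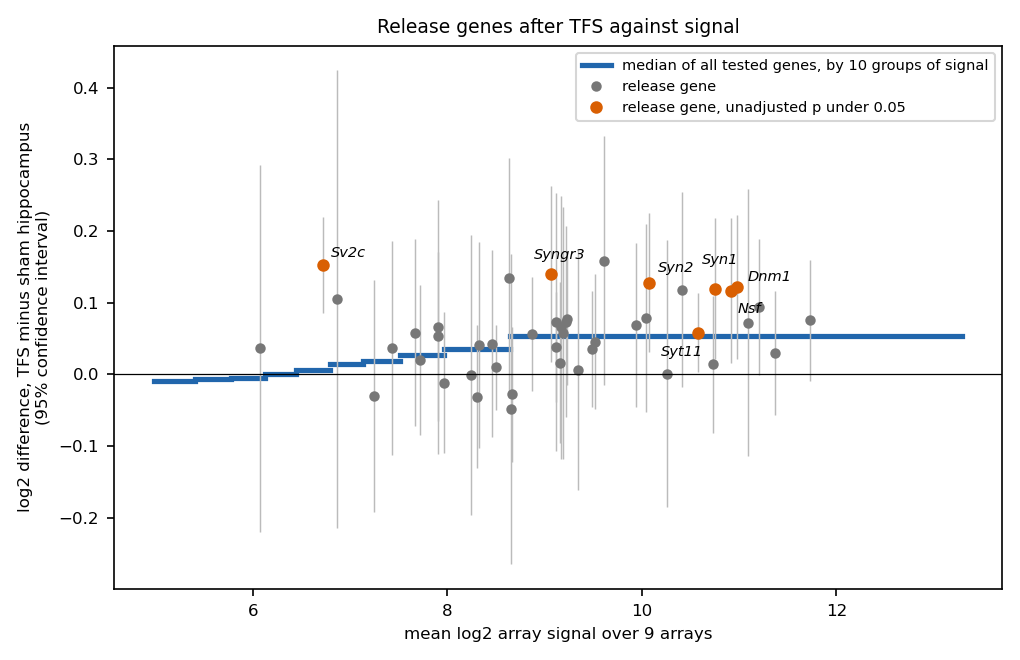
Log2 difference between TFS and sham hippocampus for each of the 45 release genes (points, with the 95% confidence interval of the limma fit) against mean log2 signal over 9 arrays, with the median of all tested genes in each of 10 equal groups by signal (blue steps). The steps reach 0.054 in the brightest group, where most release genes lie, and the 7 orange points have an unadjusted p under 0.05.

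None of the other release genes passed after TFS either: limma called 0 of 88, with a median difference of 0.025. An unadjusted p under 0.05 was reached by 8 (9.09%), against 5.19% of all genes and 10.2% of those above the background range. Each marker list likewise gave no call, with 0 interneuron, astrocyte, microglial, oligodendrocyte or choroid plexus genes past the test. Interneuron markers averaged 7.97 to 8.04 on the TFS arrays, against 7.91 to 8.02 on the sham hippocampal arrays.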

How the data were processed

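The authors deposited log2 values, 1 for each transcript cluster or control probe set. RMA and limma are listed in the submitters' processing notes, with no version, role or order. After 1738 of 70580 rows were left out as controls, the 23446 rows with a single symbol gave 22093 genes, each read by its brightest row. Genes no dimmer than the median row (mean signal 4.99) were tested, 15522 in all. The limma package (3.58.1, R 4.3.3) fitted 3 group means over the 9 arrays, with 6 residual degrees of freedom and 1.46 from eBayes. Tests were two-sided, adjusted by Benjamini-Hochberg over all tested genes, with a threshold of 0.05. Tested on simulated data for hippocampus minus cortex (15522 genes, 200 changed), the fit recovered 93% of changes of 0.5 and 100% of changes of 1, with 14 false calls. This gives no recovery for smaller changes, such as most of the members' differences, or for changes after TFS.

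The members and the gene lists were chosen with earlier results of these data known, so the lists get counts and medians and no test. Every member could be named. Those past the region test, those with the 6 smallest p after TFS and the families described were given by array. From each other release list up to 4 genes past the threshold with the largest differences were named, and from each marker list up to 3.

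Sham arrays of one number had deviations from their group means that correlated at 0.416, 0.202 and 0.252, which by the rule that each must exceed 0.1 pairs them, although the labels do not say what the number marks. TFS and sham hippocampal arrays did not pair by number (-0.111, -0.287 and -0.025). The alternatives were other filters on signal, the mean of a gene's rows, 6 arrays alone, median centring, quantile normalization, eBayes with trend and robust options, the number as a block and leaving out arrays. Precision is limited by how few arrays there are. Positions are printed for the RefSeq promoters alone, since a build for the array is not given in the sources used here.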

Additional observations from a re-analysis of the deposited data

How the results depend on the processing

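Of the 17 region calls 7 passed in all 19 alternatives, and no called member changed direction. With the replicate block over only the 6 sham arrays, chosen after seeing the data, 9 members, 14 other release genes and 982 genes passed. The same 6 arrays without the block gave 11 members, 19 other release genes and 1211 genes. The main fit gave 17, 25 and 1931. With the block over all 9 arrays 17 members, 23 other release genes and 1925 genes passed. Leaving out 1 array gave 10 to 20 members, with 10 without cortical array 1, and 1285 to 2183 genes, with 1285 without hippocampal sham array 2. Without array 1 of both sham groups, also chosen after seeing the data, 8 members, 14 other release genes and 1328 genes passed. In that setting 1 gene passed after TFS. The cause of these changes beyond fewer arrays was not tested.

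After TFS 1 gene passed with each array centred on its median, and 0 members did under any alternative. The members' median was 0.013 after quantile normalization of the tested genes. That setting turned the TFS differences of Sv2a (-0.023), Syt1 (-0.051), Syt3 (-0.013), Syt7 (-0.031), Syt11 (-0.0014), Syt17 (-0.014), Cplx1 (-0.066), Cplx2 (-0.077), Rims1 (-0.042), Amph (-0.0065) and Nrxn3 (-0.026), and the region differences of Syt1 (0.024), Syt17 (-0.022) and Dnm1 (-0.024). Median centring turned those of Syngr1 (0.019), Stxbp5 (0.0030), Rab3b (0.030) and Rims2 (7.9e-04) after TFS and of Syt1 (0.019) between regions. The mean of all rows turned Syt1 (-0.039) and Syt7 (-0.029) after TFS and Erc2 (-0.0031) between regions. Without 1 array the TFS difference changed sign for Syngr1 (-0.042 to 0.040), Syt3 (-0.0099 to 0.056), Syt7 (-0.0080 to 0.028), Doc2a (-0.0049 to 0.081), Vamp2 (-0.0096 to 0.14), Cplx1 (-0.064 to 0.036), Cplx2 (-0.015 to 0.050), Cplx3 (-0.033 to 0.12), Rab3b (-0.064 to 0.074), Rims1 (-0.066 to 0.051), Rims2 (-0.063 to 0.027) and Nrxn3 (-0.011 to 0.046). The region difference did for Syp (-0.022 to 0.050), Syt1 (-0.040 to 0.031), Syt17 (-0.027 to 0.038), Vamp2 (-0.10 to 0.046), Rab3c (-0.054 to 0.12) and Dnm1 (-0.044 to 0.040). Without array 1 of both sham groups it turned for Syngr1 (0.0042), Cplx2 (-0.015), Cplx3 (-0.033), Rab3b (0.0089) and Rims1 (-0.066) after TFS, and for Syt1 (0.021), Syt17 (-0.032) and Rab3c (-0.030) between regions. None of these had passed the test.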
